A study of Solanum lycopersicum with 12 samples.

Results

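Leaves of untreated tomato plants gave 3 of the 12 arrays of the series, and all 3 are described here. They were chosen by their labels alone, which give water as pre-treatment and water as main treatment, the group called WW. The plants were cv. Ailsa Craig, 4 weeks old, grown in 2 L pots of compost in a glasshouse with 14 h of light at 22°C and 10 h of dark at 18°C. They were sprayed with distilled water, given water to the pots 24 h later, and harvested 48 h after the spray. No NaCl and no Alethea, the product tested in the study, was given to them. The hour of harvest is not given in the sources used here. The third true leaf of 3 plants was pooled for each RNA extract, and the experiment was carried out on 3 separate occasions, so an array is a pool and not a single plant, and array and occasion cannot be told apart. The other 9 arrays, of plants given Alethea, 100 mM NaCl or both, were not used.

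A leaf in the light spends much of its RNA on the chloroplast. The antenna proteins and several subunits of the photosystems are encoded in the nucleus, made in the cytosol and imported, while other subunits of the same complexes are encoded in the plastid itself. Metallothioneins, small proteins rich in cysteine that bind metal ions, and proteins of the ribosome are also among the abundant messages of plant tissue. Defence proteins such as chitinases, glucanases and PR-1, and the cyclins and wall-loosening enzymes of growing cells, are known to depend strongly on the state and age of the leaf.

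Each array held values for 10209 probe sets, sets of short probes designed to a transcript, of which 171 were control probe sets of the manufacturer. Values are log2 signals after the authors' normalisation with GCRMA, so a difference of 1 is a doubling of signal. The array medians were 7.69, 7.66 and 7.76 in arrays 1, 2 and 3. Pearson's r across all 10209 probe sets was 0.971 for arrays 1 and 2, 0.981 for arrays 1 and 3 and 0.985 for arrays 2 and 3, and these probe sets share the arrays and are not independent replicates. The 27 hybridisation controls, which are added to the sample from outside the plant, had mean signals of 11.12, 12.47 and 11.12, higher in array 2. The control probe sets for 25S ribosomal RNA gave 11.09, 11.46 and 9.46 and those for 17S gave 7.58, 8.57 and 5.13, both lowest in array 3. The 3′ probe set of actin exceeded the 5′ one by 0.85, 0.59 and 0.82, and that of GAPDH by 0.38, 0.13 and 0.12, a measure of how intact the RNA was. The part these differences play in the results was not tested.

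Mean signals ran from 0.88 to 15.58, with a median of 7.70. The middle range, from the 25th to the 75th percentile, was 3.18 to 9.96, and the 90th percentile was 11.93. The distribution had a narrow peak at the low end and a broad one above the median. A total of 7414 probe sets (72.6%) lay over 3.2 in all 3 arrays, 2355 (23.1%) lay under 3.2 in all 3, and 440 lay on different sides of 3.2 in different arrays. The value of 3.2 is the filter of the study's methods, about 9.2 on the linear scale.

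**Figure D1:**
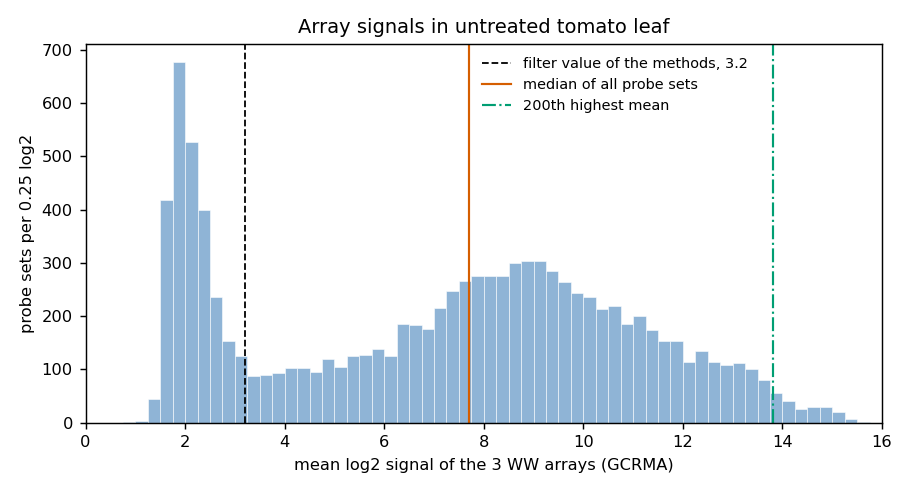
Histogram of the mean log2 signal of the 3 WW arrays for all 10209 probe sets, in steps of 0.25 on the x axis, with the number of probe sets on the y axis. The dashed line is 3.2, the solid line is the median of 7.70 and the dash-dotted line is the 200th highest mean, 13.81.

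Signals of different probe sets are not strict measures of the number of molecules, because probes bind with different strength. Genes with several probe sets on the array show how far signals of the same gene lay apart, differences in the strand and the stretch of transcript included. Of 83 genes with 2 or more probe sets, the highest and lowest mean of the same gene differed by a median of 3.98, and 36 differed by 5 or more. PR1b1, a PR-1 protein of the leaf apoplast, had a mean of 14.25 with one probe set and 2.52 with the other. FESOD, an iron superoxide dismutase, had 13.63 and 2.06, and the carbonic anhydrase gene ca2 had 13.86 and 2.64. In 36 of the 83 genes a probe set under 3.2 in all 3 arrays stood beside a probe set over 3.2 in all 3, and in 25 of these the higher was of the class named S, designed to the sense strand, and the lower of the class named A, the antisense one. Of 707 pairs of an S and an A probe set to the same cluster of sequences, the S probe set was higher in 507 (71.7%), by more than 2 in 355, and the A probe set was higher by more than 2 in 122. A low value of a single probe set is therefore not given below as absence of the gene, and the order of genes is the order of their signals.

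The 200 probe sets with the highest mean lay between 13.81 and 15.58, with a median of 14.35. The next probe set below them had a mean of 13.80. Of the 200, 145 were among the 200 highest of every array taken alone. They held 11 control probe sets and 189 probe sets for genes, and of the latter 34 carried a name that could be used and 155 did not. The highest of all had no name, with 15.50, 15.72 and 15.51, and the next had none either. Probe sets with a gene symbol made up 18.5% of the 200 and 8.90% of all probe sets. A share of 12.7% of the 189 had an s, a or x suffix, which marks probes that can match several transcripts, against 2.56% of all gene probe sets.

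All 9 probe sets listed by symbol for nuclear genes of the light reactions were among the 200, with a median of 15.03. The list does not hold every such gene on the array. An A probe set named ferredoxin-1, given below, is not in it and had a mean of 7.66. The antenna protein CAB6A had 15.28, 15.26 and 15.21, and CAB4 had 15.17, 15.26 and 15.09. Their relative CAB5 had 15.07, 14.97 and 14.62. The 3 antenna genes thus stood near the top of the scale in every array. The photosystem I subunit psaD had 15.33, 15.10 and 15.13. The proteins of the oxygen-evolving complex, which splits water at photosystem II, had 15.12, 15.07 and 14.96 for PSBO, 14.93, 14.81 and 14.63 for PSBP, and 15.03, 14.89 and 14.83 for PsbQ. PSBR, a further photosystem II subunit, had 14.94, 15.19 and 14.95, and plastocyanin (PETE), the copper protein that carries electrons to photosystem I, had 14.83, 14.79 and 14.67. The range over the arrays was 0.07 to 0.45 in these 9, with a median of 0.20. The median range was 0.29 over the 200 highest and 0.34 over all probe sets with a mean between 13 and 16. Both sets reach down to lower signals than the 9, and ranges were wider at lower signals. Steadiness is therefore not given as a trait of these genes. Array 1 was the highest for 7 of them and array 3 the lowest for 7.

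The highest named probe set was that of TLRP, a tyrosine- and lysine-rich protein of the cell wall, with 15.14, 15.66 and 15.47. Metallothioneins were also in the top set. LEMT1 had 15.31, 15.50 and 15.42, MT4 had 14.84, 14.89 and 14.91 with its highest probe set and 9.84, 10.24 and 10.08 with its lowest, and MTA had 14.15, 14.52 and 14.28. MT3 was lower, with 9.49, 9.40 and 9.28, and MT2 stood at 1.98, 1.99 and 1.98. Signals of the family thus lay at the top, in the middle and at the bottom of the scale. None of the probe sets named here had a range of 1 or more. Such a range was found in 8 of the 200 highest and in 21.5% of all probe sets with a mean between 9 and 11. The lipid transfer protein gene ltpg1, of a family of secreted proteins that bind lipids, had 14.48, 14.57 and 14.13.

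Enzymes of photorespiration and peroxide removal were also in the top set. GS2, the chloroplast glutamine synthetase that takes up ammonium released in photorespiration, had 14.92, 14.81 and 14.92. The catalase genes CAT2 and cat1 had 14.40, 14.78 and 14.90, and 14.43, 14.74 and 14.56. DHAR1, a dehydroascorbate reductase that restores ascorbate, had 13.96, 14.20 and 14.12 with a probe set of the class named A and 12.84, 13.33 and 13.06 with one of the class named S. The glyoxysomal malate dehydrogenase gMDH had 13.69, 14.31 and 14.01, and POR2, which makes chlorophyllide in the light, had 14.34, 13.77 and 13.98. None of these 6 had a range of 1 or more, and only 8 of the 200 highest probe sets had one.

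The remaining named members of the top set included genes of protein synthesis and of defence. The translation factor eIF-5A4 had 14.31, 14.41 and 14.15, and the ribosomal protein genes L23 and RPL3 had means of 13.92 and 13.81, RPL3 being among the last members inside the set. TCTP, the translationally controlled tumour protein, had a mean of 14.21. The symbol gad2, whose role is not given here because the reference lists unlike names for it, had 14.27, 14.98 and 14.56. The chitinase CHI3 had 13.39, 14.87 and 14.95, and the PR-1 gene PR1b1 had 13.28, 14.76 and 14.71, so both were lower in array 1 by more than 1. In the top set 8 probe sets had a range of 1 or more, 1 of them a control, and the largest range was 1.89.

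**Figure D2:**
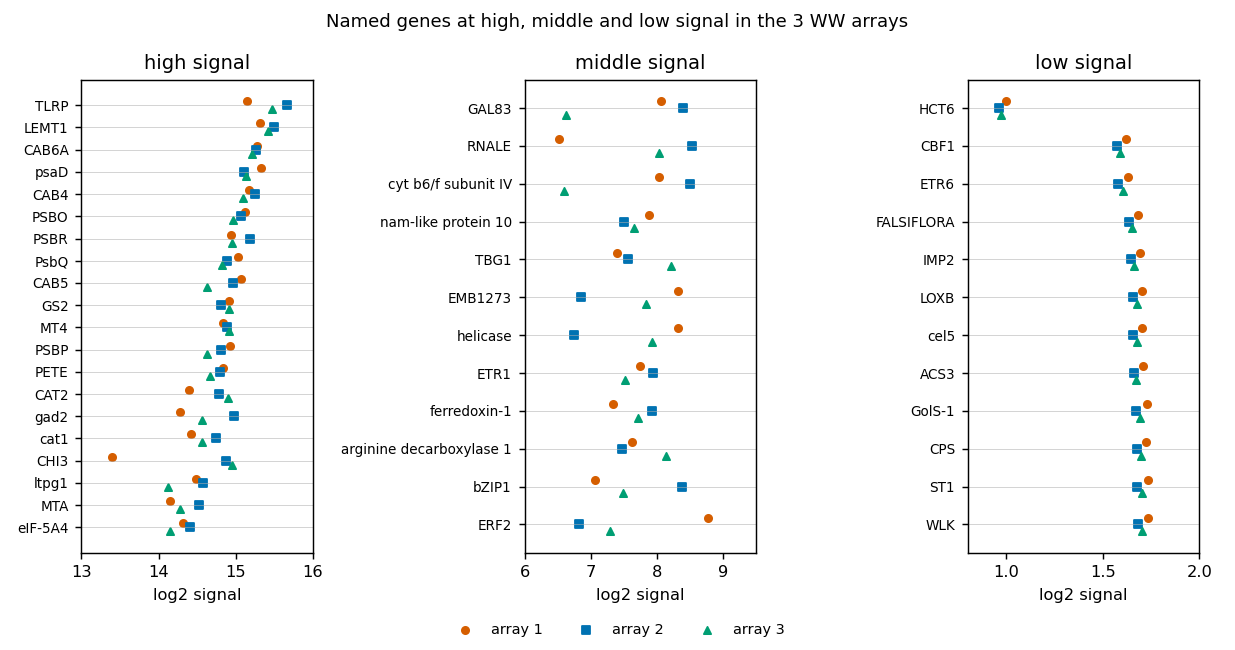
Log2 signal (x axes, each panel with its own scale) of the named genes with the highest, middle and lowest means, with arrays 1, 2 and 3 as circles, squares and triangles. In the high panel CHI3 stands out with 13.39 in array 1, the middle genes are spread over up to 2.02, and the low genes are spread over no more than 0.06.

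Named genes in the middle of the scale, nearest to the median of 7.70, included both regulators and enzymes. Among them were GAL83, a subunit of the SnRK1 kinase complex that responds to sugar supply, with 8.07, 8.40 and 6.62, and RNALE, a ribonuclease, with 6.51, 8.53 and 8.04. The ethylene receptor ETR1 was steadier, with 7.74, 7.94 and 7.51, and so was the nam-like protein 10, of the NAC family of transcription factors, with 7.88, 7.5 and 7.65. The factors bZIP1 and ERF2 had 7.06, 8.38 and 7.49, and 8.78, 6.83 and 7.29. The beta-galactosidase TBG1 had 7.40, 7.56 and 8.21. An A probe set for ferredoxin-1 had 7.33, 7.93 and 7.71, and arginine decarboxylase 1, an enzyme of polyamine synthesis, had 7.62, 7.47 and 8.14. Of the 12 named genes taken at this level, 7 had a range of 1 or more, against 29.2% of all probe sets with a mean between 7 and 9. Several of the 12 are named only in the study's lists of probe sets responding to treatment. They are not a sample of this level. The arrays that were high and low differed from gene to gene.

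Gene groups differed in where on the scale their members lay, and they are given here roughly from high to low. The order is not fixed, since with only the highest probe set of each symbol the median of the cytoskeleton, histone and phosphatase 2A genes went from 10.81 to 12.65, that of nitrogen and amino acid metabolism from 9.07 to 10.24, and that of the auxin, gibberellin and brassinosteroid genes from 5.87 to 7.47. After the light reactions (median 15.03) came the metallothioneins and lipid transfer proteins, with a median of 13.86 over 11 probe sets, 6 of them in the top set. The ribosomal proteins and translation factors had a median of 13.01 over 13, from 14.29 for eIF-5A4 down to 1.81 for LysRS, a lysyl-tRNA synthetase and the only member under 3.2. None of the 12 others had a range of 1 or more, and their median range was 0.28. Over all probe sets the share with such a range was 15.6% for means of 11 to 13 and 6.5% for 13 to 16. The median ranges of these 2 classes were 0.52 and 0.34. The 14-3-3 proteins, which bind phosphorylated partners, had a median of 12.12 over 8, from 13.15 for TFT to 9.91 for tft10. Array 2 was the highest for 7 of the 8, against 31.2% of all probe sets over 3.2. The order of these medians rests on probe sets with a symbol, which are 909 of 10209.

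The carbonic anhydrases and malate enzymes had a median of 12.07 over 13 probe sets and the antioxidant enzymes 11.55 over 21. In the first group the chloroplast enzyme ca2 was higher in array 1 with each of its 3 probe sets over 3.2, for example 14.63, 13.13 and 13.81, whereas ca1 differed by only 0.09 between arrays (12.94, 12.85 and 12.94). Among the antioxidant genes, FESOD had 13.88, 13.48 and 13.54 and the thioredoxin peroxidase TPx1 had 13.46, 13.70 and 13.46. The copper and zinc superoxide dismutases had 12.23, 12.25 and 13.10 for SODCC.1 and 8.74, 8.56 and 10.39 for SODCP.2, both highest in array 3. The ascorbate peroxidase APX2 had 12.79, 12.79 and 12.97 with one probe set and 10.93, 10.12 and 10.56 with the other, while APX1 had 6.30, 8.95 and 5.73. Pigment synthesis had a median of 10.46 over 19. Zeaxanthin epoxidase (ZEP) had a mean of 13.10, and the leaf phytoene synthase gene PSY2 had 10.14, 10.29 and 10.53. NCED1, which cleaves carotenoids on the way to abscisic acid, was lower, with 7.74, 6.29 and 7.13.

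The pathogenesis-related proteins had a median of 10.87 over 16 probe sets, and 14 of the 16 were over 3.2 in all arrays. Beside CHI3 and PR1b1, high signals were seen for the subtilisin-like protease P69B (12.61, 14.32 and 14.37), the chitinase CHI9 (11.27, 14.31 and 13.58) and the glucanase GluB (11.04, 13.82 and 13.55). Untreated leaves thus gave strong signals for several genes of this group in every array. A group of cytoskeleton, histone and phosphatase 2A genes had a median of 10.81 over 6, with ACT at 13.64, 13.35 and 13.63 and PP2AC1 at 8.35, 8.45 and 8.37.

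Primary metabolism lay lower. Sugar metabolism had a median of 9.14 over 23 and nitrogen and amino acid metabolism 9.07 over 18. The starch enzyme AGPL3, a large subunit of ADP-glucose pyrophosphorylase, had 12.29, 11.58 and 11.81, and sucrose phosphate synthase (SPS) had 10.86, 11.53 and 11.42. The beta-amylase BMY3, an enzyme of starch breakdown, had 9.49, 11.98 and 11.42, and its 2 other probe sets were also lowest in array 1 by more than 2. Of the sugar genes over 3.2, 11 of 18 (61.1%) had a range of 1 or more, against 26.1% of all probe sets over 3.2. The genes for S-adenosylmethionine synthesis and recycling were high, with means of 13.70 for SAM3 and 13.31 for SAHH. Light signalling, with the cryptochromes and phytochrome A, had a median of 8.22 over 12, from 10.51 for the blue-light receptor CRY1A to 3.79 for DET1, and none of the 12 was under 3.2 in all arrays.

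Transport had a median of 7.38 over 30 probe sets and cell wall enzymes 6.78 over 53. The proton pump LHA2, which energises the plasma membrane, led the transport genes with 13.64, 13.55 and 13.84, and its relative LHA1 had 10.23, 10.28 and 10.50. The aquaporin LePIP1 had 12.95, 11.15 and 11.13, and the ammonium transporter AMT1-2 had 9.46, 12.18 and 12.50, so these differed from array 1 in opposite directions. At the low end lay the sodium and proton exchanger NHX1 with a mean of 1.97, while NHX2 had 7.58, 6.77 and 7.77. In the wall, XTH1, a xyloglucan endotransglucosylase, had 13.69, 13.13 and 13.10, and the expansin EXP2 had 11.77, 13.10 and 12.97. A group of 16 wall probe sets was under 3.2 in all arrays. It held the polygalacturonases PG2, TAPG1, TAPG2 and TAPG4, which dissolve pectin in ripening fruit or abscission zones, and the mannanases MAN1, MAN2 and Man4.

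Low medians were found for several groups of regulators and inducible proteins. The cell cycle had 6.71 over 13, the auxin, gibberellin and brassinosteroid genes 5.87 over 25, wound and jasmonate proteins 5.83 over 24, ethylene genes 4.99 over 29, transcription factors 4.77 over 68, and heat shock proteins 4.41 over 9. Within each group some members were high. The Aux/IAA repressor IAA16 had 10.78, 10.84 and 10.74 with its S probe set and a mean of 4.34 with its A probe set. The gibberellin repressor GAI had 9.84, 9.46 and 9.24. The ethylene-forming oxidase ACO4 had 12.19, 12.50 and 12.91, and the ethylene factor EIL2 had 11.69, 12.03 and 11.86. The 4 EIL genes, which act near the end of ethylene signalling, had means of 9.85 to 11.86. Of the ACC synthases, which make the precursor of ethylene, ACS6 had 8.18, 9.01 and 8.51, ACS1A had 3.40, 5.06 and 3.65, and ACS2, ACS3, ACS4, ACS5, ACS7 and ACS8 were under 3.2 in all arrays.

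Among transcription factors 27 of 68 probe sets were under 3.2 in all arrays, against 23.1% of all probe sets, and none was in the top set, which holds 1.96% of all. JERF1, an ethylene response factor, was the highest with 11.16, 12.19 and 11.21, and MYC2, the main factor of jasmonate response, had 10.33, 10.80 and 10.80. The heat shock group was split. The constitutive chaperones HSC80 (13.07, 12.99 and 13.21), Hsp90-1 (12.95, 12.58 and 13.25) and CPN21 (13.58, 12.89 and 13.55) were high, and of the small heat shock proteins HSP17-6 was at 10.68, 10.22 and 10.14 while HSP21 was at 3.37, 1.72 and 1.76 and ER-SHSP at 2.02, 1.95 and 1.98. The wound and jasmonate group was split in the same manner, with OPR1 at 11.99, 12.85 and 12.61 and AOC at 11.24, 10.95 and 11.05. OPR3 was at 9.85, 9.61 and 9.98 and the allene oxide synthase AOS at 2.17, 2.13 and 2.19. The 4 probe sets of the symbol ppo, for polyphenol oxidase, lay at means of 1.48 to 1.81. A probe set without this symbol, named polyphenol oxidase F, had 8.94, 4.71 and 8.69.

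**Figure D3:**
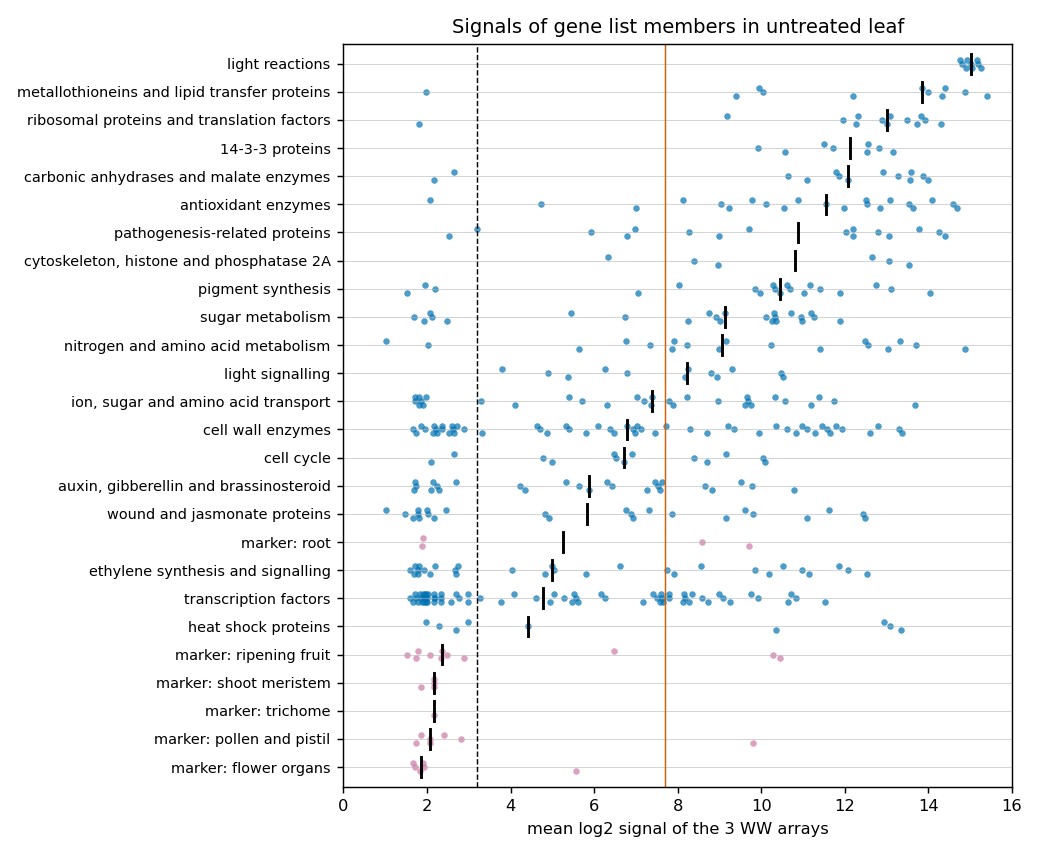
Mean log2 signal over the 3 WW arrays (x axis) of each probe set of each gene group (rows), with the group median as a black bar, the value 3.2 dashed and the median of all probe sets as a vertical line. Marker genes of other organs, in the rows named marker, lie mostly near 2, and the 9 light reaction probe sets lie between 14.76 and 15.25.

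The labelled tissue was set against marker genes of other organs. The leaf markers are the 9 light reaction probe sets above and add nothing to them, and no small subunit of Rubisco was matched by symbol. Markers of the shoot meristem were under 3.2 in all arrays for 4 of 4 probe sets (KN1, T6, LS and WUS, means 1.85 to 2.18), and the gland terpene synthase MTS1 had 2.20, 2.14 and 2.16. Flower markers were under 3.2 for 5 of 6, and the exception TDR6, a MADS-box gene, had 5.79, 4.98 and 5.95. Pollen and pistil markers were under 3.2 for 6 of 7, and the exception LAT61 had 9.75, 9.89 and 9.74. Ripening fruit markers were under 3.2 for 8 of 11. The 3 others were the expansin EXP1 with 5.46, 7.33 and 6.62 and 2 probe sets of the phytoene synthase gene Psy1, with means of 10.46 and 10.28. These 2 differed in the order of the arrays, with 9.18, 10.70 and 11.49, and 11.31, 8.79 and 10.74. A further Psy1 probe set, with a mean of 1.52, is among the 8 under 3.2. Of 4 root markers, PT2 and FER were under 3.2, and RSI-1 had 8.84, 10.56 and 9.73 and the ferric reductase FRO1 6.46, 9.66 and 9.62. Genes named for an organ were thus mostly at the low end, with LAT61, RSI-1, FRO1 and Psy1 as the clear exceptions.

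The 2355 probe sets under 3.2 in all 3 arrays had a median mean of 2.01 and means of 0.88 to 3.14. They held 123 of the 171 control probe sets and 209 probe sets with a gene symbol. Of the gene probe sets among them 40.9% were of class A, against 23.7% of all gene probe sets. Of 802 genes with a symbol, 155 had every probe set under 3.2 in all arrays. The lowest named genes were HCT6 with 1.00, 0.96 and 0.97, the cold-response factor CBF1 with 1.62, 1.57 and 1.59, the ethylene receptor ETR6 with 1.63, 1.58 and 1.6, and FALSIFLORA, which gives floral meristems their identity, with 1.68, 1.63 and 1.65. Near them lay the lipoxygenase LOXB, the endoglucanase cel5, the ACC synthase ACS3, the galactinol synthase GolS-1, the gibberellin precursor enzyme CPS and the sulphate transporter ST1, with means of 1.68 to 1.71. The probe sets of the receptors ETR1 and ETR2 had means of 7.73 and 7.92.

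Signals at the low end hardly differed between arrays. The median range of the low set was 0.067, and 70.6% of its probe sets had a range under 0.1. Array 1 was the highest in 83.3% of them, with medians of 2.03, 1.99 and 1.98. Array 1 was also the highest in the 42 bacterial poly-A controls, none of which come from the plant, with means of 1.97, 1.90 and 1.92. The 3 probe sets just inside the limit had a highest array value of at least 3.199, and the 3 just outside it had one of at most 3.201.

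The 440 probe sets under 3.2 in only some of the arrays had a median range of 1.49, and 160 of them had a range of 2 or more. Array 1 was the only array over 3.2 for 131 of them, array 2 for 108 and array 3 for 48. Array 1 was the only array under 3.2 for 56, array 2 for 72 and array 3 for 25. The largest range of all, 7.52, was that of an F-box protein (F-box PP2-B15 in the study), with 2.68, 10.20 and 8.53. CO1, of the CONSTANS family of light-dependent regulators, had 2.93, 8.29 and 7.24, and a WRKY53 homologue had 2.38, 6.69 and 4.97. In the opposite direction BR1, a brassinosteroid-regulated wall enzyme, had 8.19, 2.77 and 3.18, and a B-type cyclin had 7.05, 2.74 and 4.2. These genes would count as detected or not detected depending on the array.

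Of the 7414 probe sets over 3.2 in all arrays, the median range over the 3 arrays was 0.62 and the median SD 0.33. The range was under 0.1 in 246, at least 1 in 1932 (26.1%), at least 2 in 438 and at least 3 in 115. It fell with the level. Taken over all probe sets of a level class, those with a mean between 3.2 and 5 had a median range of 1.03, those between 7 and 9 had 0.69, and those between 13 and 16 had 0.34. The count of 1932 depends on the arrays used, since among the same 7414 probe sets 673 differed by 1 or more between arrays 2 and 3, 991 between arrays 1 and 3 and 1469 between arrays 1 and 2. A pair of arrays gives smaller ranges than 3 arrays by construction.

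**Figure D4:**
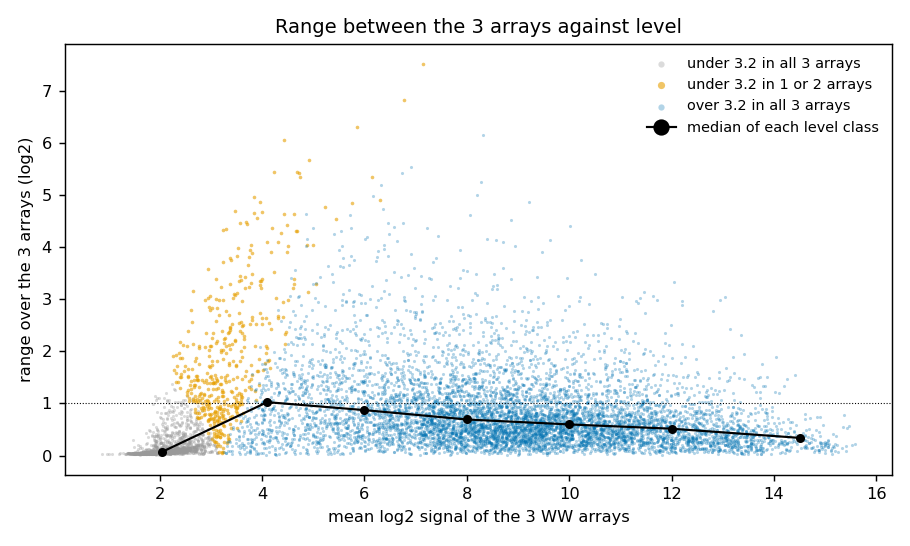
Range over the 3 WW arrays (y axis, log2) against mean log2 signal (x axis) for every probe set, coloured by whether it lay under 3.2 in all, in 1 or 2, or in none of the arrays. The black line joins the median ranges of 7 level classes, with 1.03 for means of 3.2 to 5 and 0.34 for means of 13 to 16, and the dotted line marks a range of 1.

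The 200 steadiest probe sets over 3.2 had ranges of 0.0106 to 0.0892, and the next probe set had 0.0895. Their median mean was 9.29, and 14 of them belonged to the 200 highest, which are 1.96% of all probe sets. That share is larger among the 7414 over 3.2, from which the steadiest were drawn. The range fell with the level, as given above. Only 8 of the 200 steadiest had a name that could be used. They were the amino acid permease AAP1 (7.19, 7.19 and 7.24), AN35 (10.92, 10.87 and 10.89), the glyoxalase GLX1, which removes methylglyoxal (11.25, 11.28 and 11.32), MT4, CAB6A, the nucleoside diphosphate kinase NDK (13.58, 13.65 and 13.63), DCL, needed for chloroplast and leaf development (10.74, 10.68 and 10.77), and the homeobox gene VAHOX1 (5.23, 5.28 and 5.31). Just outside lay ca1, RPS25, BL3 and IAA16, each with a range of 0.09. The other probe set of RPS25 had 13.23, 12.51 and 12.96. Means of the 200 ran from 3.26 to 15.41, so steady probe sets lay at all levels over the limit. After quantile normalisation only 109 of the 200 stayed in the set, so single names in it depend on the normalisation. Among the control probe sets for tomato transcripts, the ranges were 0.10 to 0.32 for GAPDH, 0.25 to 0.51 for actin and 0.35 to 0.57 for ubiquitin, and over all 20 they were 0.0817 to 0.876.

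The 200 most variable probe sets over 3.2 had ranges of 2.58 to 6.16, with means of 4.30 to 13.05. None belonged to the 200 highest, which are 1.96% of all probe sets, a larger share of those over 3.2, and have narrower ranges at their level. In 123 of them array 1 was the array apart, meaning that it lay farther from the middle value than the other extreme did, with 62 high and 61 low. Array 2 was apart in 62, of which 47 were high, and array 3 in 15. Among all 1932 probe sets with a range of 1 or more, array 1 was apart in 1023 (53.0%), array 2 in 650 (33.6%) and array 3 in 259 (13.4%). Among all probe sets over 3.2, whatever their range, the shares were 40.4%, 35.4% and 24.2%.

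Defence genes made up the clearest group that was low in array 1. Of the 14 pathogenesis-related probe sets over 3.2, 12 were lowest in array 1, against 35.4% of all probe sets over 3.2, and 13 (92.9%) had a range of 1 or more. The median of array 1 minus the mean of the others was -2.66, and it was -2.41 against array 3 alone and -2.39 against array 2 alone. The osmotin NP24-I had 5.15, 10.41 and 9.27, the thaumatin-like PR-5 had 9.87, 13.04 and 13.20, and CHI14 had 5.04, 7.25 and 8.64. PR-P2 had 10.37, 12.94 and 13.27, and P4, of the PR-1 family, had 10.22, 13.19 and 13.18. An A probe set of TSI-1 had 4.82, 7.79 and 7.73. The exceptions were P69A (9.82, 8.53 and 8.65) and CHI17 (6.52, 5.09 and 6.18), both highest in array 1, and the glucanase GLUII hardly differed (9.54, 9.65 and 9.91). In such pooled leaf samples fewer cells of a type and less RNA per cell cannot be told apart.

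Some other groups were low in array 1 as well, by less. Of 17 ethylene probe sets, 14 were lowest and 1 highest there, with a median of array 1 minus the others of -0.52. This median was -0.76 for the wound and jasmonate proteins, with 9 of 14 lowest and 2 highest. It was -0.40 for the transcription factors, with 24 of 37 lowest and 8 highest. Array 1 was lowest in 35.4% of all probe sets over the filter. The nitrogen and amino acid group was not low there, with 7 of 16 probe sets lowest, 7 highest and a median of -0.07. The single genes that follow were picked for being low in array 1. NPR1, the regulator of the salicylate response, had 3.90, 6.79 and 6.01, and the arginase ARG2 had 5.32, 9.27 and 9.02 with one probe set and 3.85, 8.32 and 8.09 with another. The remaining ARG2 probe set was under 3.2 in all arrays, with a mean of 1.01. A metallocarboxypeptidase inhibitor had 5.25, 10.26 and 9.12. The GABA transaminase GABA-TP1 had 6.08, 7.95 and 8.00, and the proline oxidase gene had 6.26, 8.06 and 8.04. Array 1 was lowest and array 3 highest for the wound-induced aminopeptidase and lipoxygenase LAPA1 (6.01, 6.66 and 8.13) and TomloxE (5.79, 6.69 and 8.20). Not every member of the wound group was low in array 1, since the lyase HPL had 12.80, 12.30 and 12.19.

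Among genes of the clock and of day length the 2 with names were also low in array 1. LHY, a factor of the morning in the clock of Arabidopsis, had 6.93, 10.63 and 10.83, and CO1 is given above. These names were picked after their values were seen. The nuclear antenna genes, given above, differed by 0.45 at most.

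Genes of cell division and growth held the opposite pattern in part. Of the 11 cell cycle probe sets over 3.2, 6 were highest in array 1, against 36.8% of all probe sets over 3.2, and the median of array 1 minus the others was 0.32, with 0.27 against array 2 alone and 0.65 against array 3 alone. The B-type cyclin-dependent kinases, which act around mitosis, were high in array 1, with 9.0, 5.58 and 5.57 for CDKB2 and 8.23, 5.90 and 6.59 for CDKB1, and so were the A-type cyclins CycA1 (7.19, 3.92 and 3.89) and CycA2 (6.67, 3.79 and 3.84). CDKA1, the kinase present throughout the cycle, had 10.25, 10.25 and 9.59, and PCNA, of the replication fork, had 9.65, 10.17 and 10.47. The inhibitor krp1 was lowest in array 1, with 5.59, 6.72 and 7.24. Arrays 2 and 3 were nearly equal for CDKB2, CycA1 and CycA2.

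Of 36 wall probe sets over 3.2, 21 were highest in array 1, against 36.8% of all probe sets over 3.2. A further 13 were lowest there, which is close to the 35.4% of all probe sets. The endoglucanases Cel1 and CELLULASE had 7.0, 3.46 and 3.44, and 8.83, 6.12 and 6.11. XTH16 had 13.25, 10.19 and 11.47 with one of its 3 probe sets, and all 3 ran in that order, array 1 above array 3 above array 2. Lowest in array 1 were XTH3 with 4.68, 6.78 and 6.80 and EXP2, given above. Among hormone enzymes, the gibberellin oxidase 20ox-2 had 8.24, 5.20 and 5.52. The brassinosteroid oxidase CYP85A1 had 8.64, 6.87 and 7.33 with its higher probe set and 6.63, 4.70 and 4.64 with the other. These were picked for their difference, and the auxin, gibberellin and brassinosteroid group had 6 of 17 probe sets highest in array 1, close to the share of all. The leaf-shape factor TCP3 had 12.04, 9.93 and 10.17. The transcription factor group as a whole went the other way, with 8 of 37 probe sets highest and 24 lowest in array 1.

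Transcripts named for plastid-encoded proteins had wider ranges than the 9 listed nuclear probe sets of the light reactions, at lower signals. This plastid set was chosen after its values were seen. It had 7 probe sets, each with a range of at least 1.68, and 5 of the 7 ran in the order of array 1 above array 3 above array 2. The photosystem I assembly protein Ycf4 had 10.41, 6.25 and 8.51, cytochrome f had 10.93, 8.11 and 9.14, and the 10 kDa phosphoprotein of photosystem II had 9.38, 6.53 and 7.58. Subunit IV of the cytochrome b6/f complex did not follow, with 8.04, 8.50 and 6.6. Ribosomal proteins S3, S4, S7, S12 and L22, names used for proteins of organelle genomes but also for proteins of cytosolic ribosomes, had 8 probe sets, all highest in array 1, for example 13.44, 11.84 and 12.23 for S4. These names come from lists that the study made of probe sets responding to its treatments, so they are not a sample of plastid genes.

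**Figure D5:**
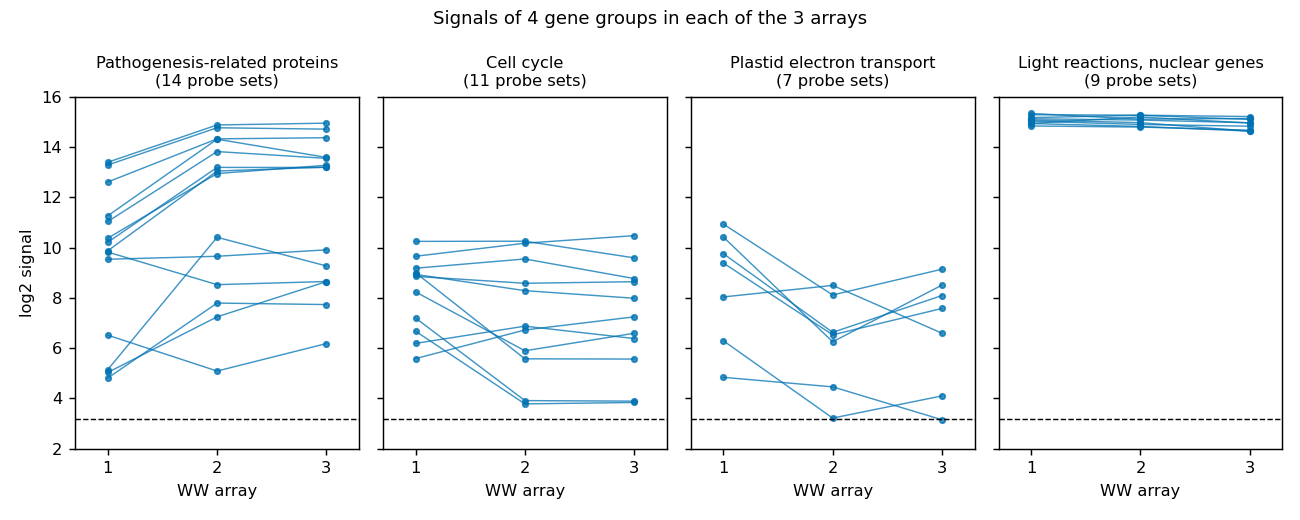
Log2 signal (y axis) in WW arrays 1, 2 and 3 (x axis) for the probe sets of 4 gene groups, with 3.2 dashed. Lines join the values of 1 probe set and show no course in time. In the first panel 12 of 14 probe sets are lowest in array 1, in the second 6 of 11 are highest there, in the third 6 of 7 are highest there, and the 9 nuclear light reaction probe sets in the fourth stay within 0.45.

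Array 2 alone was high for a smaller group. The A probe set of H1 had 4.57, 9.76 and 4.66, while the s probe set of H1 had 12.74, 13.31 and 13.14. An A probe set of RCE1 had 4.70, 9.42 and 4.99, while the S probe set of RCE1 had a mean of 12.24. The lipid transfer protein LE16 had 8.46, 11.87 and 9.52, and APX1 is given above. The hybridisation controls were also highest in array 2, with 12.47 against 11.12 in each of the others, and their part in these values was not tested. Array 2 alone was low for polyphenol oxidase F, with 8.94, 4.71 and 8.69.

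The genes that the study also measured by RT-PCR lay at different points of the scale in these leaves. Proline oxidase, which degrades proline in mitochondria, and the F-box gene had means of 7.45 and 7.14 and are given above with their arrays. The xyloglucan endotransglycosylase probe set had 3.27, 3.48 and 3.23, close to the filter value in every array. ACS1A, with a mean of 4.04, was near it in arrays 1 and 3 (3.40 and 3.65) and higher in array 2 (5.06). Only the xyloglucan probe set had a range under 1 among the 4, at 0.25.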

How the data were processed

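RNA of the 3 WW leaf samples had been hybridised to the Affymetrix GeneChip Tomato Genome Array, 1 extract per array. The authors normalised the scans with GCRMA (version not given in the sources used here) and deposited log2 values for 10209 probe sets. These values were used as deposited, and 0 columns were without a sample. Raw scans were not used, and the fold changes listed in the study's additional files hold its treatment comparisons and were not used either. Gene names came from the array annotation (909 probe sets with a symbol, 885 matched by gene ID to the RefSeq table of assembly SLM_r2.1) and from the protein names in the additional files, which list probe sets chosen for response to treatment. Named genes were the 20 with the highest mean, the 12 nearest the median, the 12 lowest, and, over 3.2 in all arrays, the 12 steadiest and 12 most variable, 1 probe set a name, with the genes measured by RT-PCR and members of the gene groups beside them. Members and groups were chosen with earlier results of these data known, and the plastid, ribosomal, beta-amylase and clock names after their values were seen. Steadiness was the range and SD over 3 arrays. No test between groups was made. Arrays differ in no counting depth, and their number of 3 limits the precision. Code ran in Python 3.11.15 with numpy 2.4.6, pandas 2.3.3, scipy 1.17.1 and matplotlib 3.10.9 and was tested on simulated data. The alternatives tried were other filter values, quantile normalisation, median centring, other rules for several probe sets of a gene and leaving out each array.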

Additional observations from a re-analysis of the deposited data

How the results depend on the processing

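With 1 array left out, the number of probe sets over 3.2 with a range of at least 1 was 688 to 1473 against 1932 with all 3, with the filter of 3.2 on the arrays left, and pairs have smaller ranges by construction. The median of array 1 minus the others was -2.41 to -2.39 for the pathogenesis-related proteins (-2.66 with all arrays) and 0.27 to 0.65 for the cell cycle (0.32). After quantile normalisation 109 of the 200 steadiest probe sets remained in the set, and with a filter of 6 in place of 3.2, 80 of the 200 most variable did. The cause was not tested beyond the construction of these settings. The 200 highest shared 183 to 198 members with the set as reported under each alternative run, and the median range over 3.2 lay between 0.492 and 0.662. Gene group medians shifted by -0.62 to 1.84, which changed the order of some groups. The settings for array 1 minus the others, for the array apart and for correlations over 3.2 were chosen after seeing the data. No paired analysis was possible because only 1 group was described and no test between groups was made. With 3 arrays, a range does not show how far a further occasion would lie from these.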
